A study of Homo sapiens with 6 samples.

Results

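The 10 genes described were read out of the RNA-seq table: the receptor BMPR2, the signal carriers SMAD1, SMAD2, SMAD4 and SMAD5, the inhibitory SMAD6 and SMAD7, and the inhibitor of DNA binding genes ID1, ID2 and ID3. They were chosen by name, as the rows whose RefSeq protein accession belongs to these genes. They made up 10 of the 19053 genes with a row and 25 of the 109018 rows. The cells were K562, an established erythroleukaemia line from chronic myeloid leukaemia that carries the BCR-ABL fusion kinase. They were stably infected with a lentivirus (pSIH-H1-GFP) that expresses either a short hairpin RNA against transcript 5 of the imatinib-upregulated lncRNA family (sh-IUR-5, called sh-lncRNA-IIRX in the labels) or a hairpin against luciferase, which human cells lack (sh-luc). RNA from 3 independent groups of cells was sequenced for each hairpin, 6 libraries in all. The library names put replicates 2 and 3 of each group into one series and replicate 1 into another, and what a series stands for is not given in the sources used here. One hairpin was sequenced, so an effect of the lost lncRNA and an effect of this hairpin on other transcripts cannot be told apart. The rows are protein accessions, so the level of the lncRNA itself was not analysed here.

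Bone morphogenetic proteins (BMPs) and TGF-beta bind pairs of type I and type II receptor kinases at the cell surface. BMPR2 is a type II receptor for BMPs. The receptors phosphorylate receptor-activated SMADs, SMAD1 and SMAD5 on the BMP branch and SMAD2 on the TGF-beta and activin branch, and these enter the nucleus with the shared partner SMAD4. SMAD6 and SMAD7 are induced by the signal and shut it off. The ID genes are classical BMP target genes, whose proteins hold E proteins away from DNA and so keep progenitor cells from differentiating.

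The hairpin target, shown because it defines the treated group, was a 21-base site that matched the hg38 reference once, on the plus strand at chr11:95232933-95232953, in an exon that GENCODE v44 assigns to the lncRNA gene LNCRNA-IUR.
sh-IUR-5 target: gctagtatcaggtttaaatag

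The libraries held 21023739 to 31481109 reads. Of the 12 marker genes listed for K562, all 12 had a mean of at least 1 RPKM in one of the groups, and none of 6 lymphoid markers did. LYZ was the only one of 5 monocyte and granulocyte markers at that level, and EPCAM and KRT8 were the only ones of 6 fibroblast and epithelial markers. The summed level of the K562 markers, most of it fetal globin, was 21630 to 24440 TMM-scaled RPKM with sh-luc and 15250 to 16160 with sh-IUR-5. Its part in the results on the SMAD and ID genes was not tested. TFRC, which encodes the transferrin receptor CD71, was higher in sh-IUR-5 (log2 fold change 1.11, SE 0.08, edgeR quasi-likelihood test, adjusted p = 1.441e-05), GAPDH was lower by 0.19 on the log2 scale (adjusted p = 0.0299, edgeR), and ACTB had a log2 fold change of 0.0099 (adjusted p = 0.917, edgeR). Neither can serve as a fixed point, since with scaling by total reads alone GAPDH was at 0.014 and ACTB was higher by 0.22 (adjusted p = 0.00878, edgeR).

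Levels are given as RPKM, reads per kilobase of coding length scaled to the library's reads, then rescaled with TMM factors, and summed over a gene's rows. Log2 fold changes are sh-IUR-5 over sh-luc. Of the 10 members, 7 had a mean of at least 1 RPKM over the 6 libraries and were tested, and SMAD1, SMAD7 and ID3 lay under that minimum. Of the 7, 4 rose in sh-IUR-5 at an adjusted p under 0.05 in the edgeR quasi-likelihood test (SMAD5, SMAD4, BMPR2 and SMAD2) and none fell. The background was high, since 47.8% of the 10392 tested genes passed, 24.8% as higher and 22.9% as lower. The same 4 members had all 3 sh-IUR-5 libraries above all 3 sh-luc libraries, as did 29.2% of the tested genes. The median log2 fold change was 0.36 over the 7 members and 0.013 over all tested genes. The choice of scaling bears on direction: with total reads alone the median of all genes was 0.22 and the calls split into 4367 higher and 1111 lower, against 2582 higher and 2383 lower with TMM, and the median of the 7 members was 0.57.

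**Figure D1:**
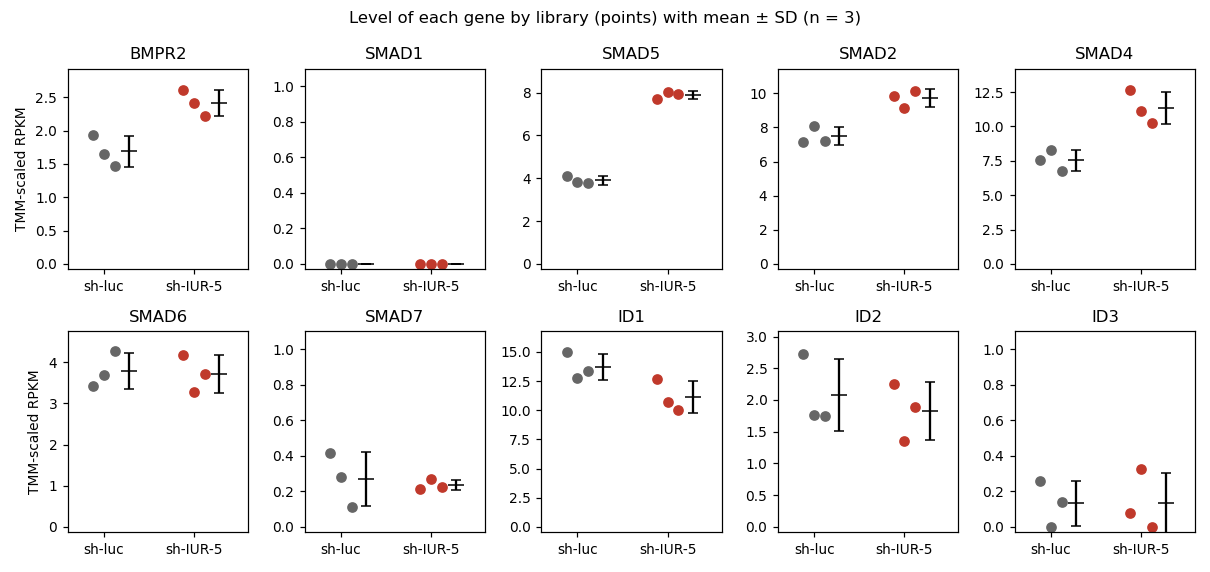
Level of each of the 10 genes in TMM-scaled RPKM (vertical axis, 1 scale per panel) in the 3 sh-luc (grey) and 3 sh-IUR-5 (red) libraries, each point a library, with the group mean ± SD (n = 3) in black. For SMAD5, SMAD4, SMAD2 and BMPR2 all red points lie above all grey points, for ID1 all red points lie below by a narrow margin (12.7 against 12.8), SMAD6, SMAD7, ID2 and ID3 overlap, and SMAD1 is at 0.

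In the sh-luc cells ID1 stood highest per kilobase of coding sequence, at 13.7 ± 1.13 RPKM (SD, n = 3). SMAD4 followed at 7.54 ± 0.772 and SMAD2 at 7.49 ± 0.517, which did not differ beyond their spread. SMAD5 at 3.90 ± 0.193 and SMAD6 at 3.79 ± 0.435 formed the next pair, also within their spread. ID2 at 2.08 ± 0.565 and BMPR2 at 1.69 ± 0.233 came below them. In the sh-IUR-5 cells SMAD4 at 11.3 ± 1.19 and ID1 at 11.1 ± 1.37 were level within their spread, followed by SMAD2 at 9.73 ± 0.514 and SMAD5 at 7.89 ± 0.185, and SMAD6 at 3.72 ± 0.452 was now well under SMAD5. BMPR2 at 2.41 ± 0.193 and ID2 at 1.83 ± 0.457 stood in the other order, in both groups within or close to their spread.

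BMPR2 (chr2:202376327-202567749, hg38) is a type II receptor that binds BMPs. Its level was 1.94, 1.65 and 1.48 RPKM with sh-luc and 2.60, 2.42 and 2.22 with sh-IUR-5, from 91 to 284 reads per library. Every sh-IUR-5 library was above every sh-luc library. The log2 fold change was 0.52 (SE 0.14, 1.43-fold, 95% interval 1.16 to 1.76, adjusted p = 0.008773, edgeR). The call was lost when a trend with coding length was removed (0.31, adjusted p = 0.0713, edgeR). In bulk RNA, more cells expressing a gene and more RNA per cell cannot be told apart, nor can fewer cells and less RNA.

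SMAD5 (chr5:136132845-136182733), a BMP-branch receptor-activated SMAD, had the largest difference of the tested members. Reads were 125, 105 and 104 in sh-luc and 376, 288 and 291 in sh-IUR-5. The levels were 4.12, 3.82 and 3.76 RPKM against 7.68, 8.04 and 7.95, so the groups lay far apart relative to the spread within them. The log2 fold change was 1.01 (SE 0.11, 2.02-fold, 95% interval 1.71 to 2.38, adjusted p = 3.325e-05, edgeR). SMAD1 (chr4:145480770-145559176), the close relative of SMAD5 on the same branch, had no read in any of the 6 libraries over its 4 rows. The same held for 21.0% of the 19053 genes with a row. At these depths 3 reads, the limit that a count of 0 allows, correspond to 0.0682 to 0.102 RPKM per library before TMM scaling. That limit covers counting error only. The table holds 4 of the 14 protein accessions that the present RefSeq release lists for SMAD1. SMAD9, which encodes the other BMP-branch SMAD, was also at 0 reads in all 6 libraries.

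SMAD2 (chr18:47808957-47930872), which carries the TGF-beta and activin signal, was at 7.16, 8.08 and 7.22 RPKM in sh-luc and at 9.87, 9.16 and 10.2 in sh-IUR-5. The groups did not overlap, and the log2 fold change was 0.36 (SE 0.10, 1.28-fold, 95% interval 1.099 to 1.49, adjusted p = 0.01252, edgeR). SMAD3, the other SMAD of that branch, had a log2 fold change of 0.35 (SE 0.14, adjusted p = 0.0521, edgeR) and was singled out after its values were seen. SMAD4 (chr18:51030213-51085042), the partner that both branches share, was read from 1 row. Its level was 7.56, 8.31 and 6.77 RPKM in sh-luc and 12.6, 11.1 and 10.3 in sh-IUR-5. All sh-IUR-5 libraries were above all sh-luc libraries, with a log2 fold change of 0.59 (SE 0.11, 1.51-fold, 95% interval 1.27 to 1.78, adjusted p = 0.001125, edgeR).

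Neither inhibitory SMAD had a detected difference. SMAD6 (chr15:66702236-66782849), which acts mainly against BMP signals, was at 3.42, 3.68 and 4.27 RPKM in sh-luc and 4.18, 3.27 and 3.70 in sh-IUR-5. The groups overlapped fully, and the log2 fold change was -0.0093 (95% interval -0.36 to 0.34, adjusted p = 0.968, edgeR), an interval that does not hold the 1.01 measured for SMAD5. SMAD7 (chr18:48919853-48950965), which blocks both branches, was close to the limit of detection, with 8, 5 and 2 reads in sh-luc and 7, 6 and 6 in sh-IUR-5 over 4 rows. In a fit without a minimum its log2 fold change was -0.15 with a 95% interval from -1.39 to 1.095, so no difference was detectable at this depth.

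Read counts set against each other inside a library do not depend on how libraries are scaled. The ratio of SMAD5 to SMAD6 reads was 1.49, 1.35 and 1.08 in sh-luc and 2.25, 3.06 and 2.72 in sh-IUR-5. The ratio of SMAD5 to SMAD2 reads was 0.641, 0.530 and 0.571 in sh-luc and 0.883, 0.980 and 0.887 in sh-IUR-5. Both ratios were higher in every sh-IUR-5 library, by 1.04 and 0.66 on the log2 scale, with an exact two-sided permutation p = 0.1, the smallest that 3 libraries against 3 allow, and 0.2 after adjustment over the 4 ratios tested. These 2 pairs were added after the values were seen. The ratio of ID1 to ID2 reads, 6.25 to 8.71 in sh-luc and 6.05 to 9 in sh-IUR-5, overlapped (exact permutation p = 0.8), as did that of SMAD7 to SMAD6 (exact permutation p = 1). Ratios to ID3 could not be taken because ID3 had no read in 2 libraries.

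ID1 (chr20:31605289-31606510) was the most abundant of the ID genes here. It had 150, 116 and 122 reads in sh-luc and 204, 126 and 121 in sh-IUR-5, or 15.0, 12.8 and 13.4 RPKM against 12.7, 10.7 and 10.04. The groups did not overlap, with sh-IUR-5 lower though by a narrow margin, as was the case for 27.2% of all tested genes (56.3% did not overlap in either direction). The log2 fold change was -0.30 (SE 0.14, 95% interval -0.60 to 0.0028) and missed the threshold (adjusted p = 0.0943, edgeR). It passed with sh-IUR-5 replicate 1 left out (-0.41, adjusted p = 0.0360, edgeR) and when the fit held a term that set replicate 1 of each group apart from replicates 2 and 3, as the library names do (-0.30, adjusted p = 0.0377, edgeR). ID2 (chr2:8682056-8684461) had 24, 14 and 14 reads in sh-luc and 32, 14 and 20 in sh-IUR-5, and the groups overlapped. Its log2 fold change was -0.17 with a 95% interval from -0.86 to 0.53 (adjusted p = 0.688, edgeR). ID3 (chr1:23557926-23559501) had 2, 0 and 1 reads against 1, 3 and 0. In a fit without a minimum its log2 fold change was -0.066, with a 95% interval from -2.71 to 2.58, too wide to show a direction.

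**Figure D2:**
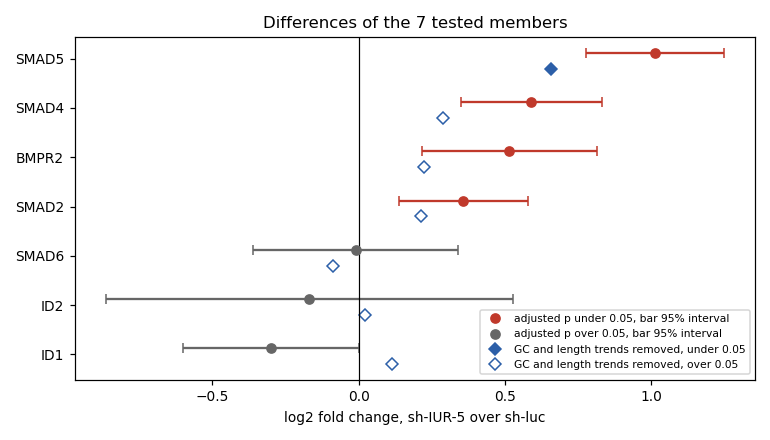
Log2 fold change, sh-IUR-5 over sh-luc (horizontal axis), of the 7 tested members, as circles with 95% intervals (red, adjusted p under 0.05; grey, over 0.05), and as diamonds after trends with GC content and transcript length were removed (filled, adjusted p under 0.05). SMAD5 passes in both, at 1.01 and 0.66, whereas SMAD4, BMPR2 and SMAD2 pass only without that removal and ID1 moves from -0.30 to 0.11.

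The members that rose and those that did not also differed in base composition. The GC content of the reference transcript was 36.9% for SMAD5, 39.1% for BMPR2, 40.3% for SMAD2 and 41.1% for SMAD4, all under the lower quartile of the tested genes (41.6%, median 48.2%, upper quartile 56.9%). It was 58.8% for SMAD6 and 57.9% for ID1, above the upper quartile, and 42.5% for ID2. In a further fit, the trends of each library's deviation from the gene means with GC content and transcript length were removed before the test. There 1 of the 7 members remained called, beside 35.6% of all genes in that fit. SMAD5 was at 0.66 (adjusted p = 0.000881, edgeR), SMAD4 at 0.29 (adjusted p = 0.0506), SMAD2 at 0.21 (adjusted p = 0.0788), BMPR2 at 0.22 (adjusted p = 0.228) and ID1 at 0.11 (adjusted p = 0.515). With total reads alone, ID1 was at -0.089, SMAD6 at 0.20 and ID2 at 0.041. The part of base composition in these differences was not tested beyond this removal.

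Rows were also read singly. The members held 15 rows with a mean of at least 1 RPKM, and 8 of them passed the threshold, 7 higher and 1 lower, where 37.3% of all 38204 tested rows passed, 19.2% higher and 18.1% lower. Rows of 1 gene share sequence, and the rule by which reads fitting several rows were placed is not given in the sources used here, so they are not independent. All 4 SMAD5 rows rose, each 1398 bases long, with log2 fold changes from 0.91 to 1.17. Of the 4 SMAD2 rows, 2 rose. The rows NP_001003652.1 and NP_005892.1 tied for the most reads, with 485 each over the 6 libraries. The first was at 0.32 (SE 0.15, adjusted p = 0.0983, edgeR) and the second at 0.46 (SE 0.15, adjusted p = 0.0258, edgeR). The BMPR2 row with the most reads (NP_001195.2) was at 0.33 (SE 0.15, adjusted p = 0.0987, edgeR), and the other BMPR2 row was under the minimum. The SMAD4 row (NP_005350.1) rose by 0.61 (SE 0.11, adjusted p = 0.000259, edgeR). The main SMAD6 row (NP_005576.3) was at 0.026 and the shorter one at -0.027.

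The ID1 rows were the only member rows of 1 gene that lay on either side of 0 with one of them called. The isoform a row (NP_002156.2, 468 coding bases) matched the coding length of the spliced GENCODE transcript, and the isoform b row (NP_851998.1, 450 coding bases) that of the transcript in which the intron is kept. They share 426 coding bases (chr20:31605388-31605813, plus strand). Isoform a continues in the next exon, from position 31606053, with 42 bases of its own, whereas isoform b reads 24 bases into the intron up to position 31605837. The last 36 shared coding bases are shown in lower case and the bases particular to each, stop codon included, in capitals, because only those letters tell the 2 rows apart.
ID1 isoform a: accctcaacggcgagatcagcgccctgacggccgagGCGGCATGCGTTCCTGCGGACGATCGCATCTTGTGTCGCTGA
ID1 isoform b: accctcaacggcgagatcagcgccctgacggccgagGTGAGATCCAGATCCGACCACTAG

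The isoform a row had 101, 77 and 79 reads in sh-luc and 112, 70 and 68 in sh-IUR-5. On the RPKM scale these were 9.91, 8.30 and 8.52 against 6.91, 5.85 and 5.55, without overlap, and the log2 fold change was -0.54 (SE 0.15, adjusted p = 0.008866, edgeR). The isoform b row had 49, 39 and 43 reads in sh-luc and 92, 56 and 53 in sh-IUR-5, with overlapping levels and a log2 fold change of 0.12 (SE 0.18, adjusted p = 0.639, edgeR). After removal of the GC and length trends they were at -0.13 (adjusted p = 0.539) and 0.53 (adjusted p = 0.0310, edgeR), so which of them was called depended on that step.

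The share of ID1 reads on the isoform a row was 67.3%, 66.4% and 64.8% in sh-luc and 54.9%, 55.6% and 56.2% in sh-IUR-5. All 3 sh-IUR-5 shares were under all 3 sh-luc shares, with means of 66.2% ± 1.30 and 55.5% ± 0.648 (SD, n = 3). The exact permutation p was 0.1, the smallest possible. The test of unequal change of a gene's rows (edgeR diffSpliceDGE, chosen after the row values were seen) gave an adjusted p of 1 for ID1 and called 1.71% of the 5805 genes with 2 or more tested rows. The shift of ID1 reads between its rows therefore did not pass. With most of both coding sequences shared, the shares themselves depend on how reads that fit both rows were placed, a rule not given in the sources used here. The 95% Wilson intervals of single libraries, from 48.0% to 61.6% in sh-IUR-5 replicate 1 and from 59.5% to 74.3% in sh-luc replicate 1, overlap and cover counting error only.

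**Figure D3:**
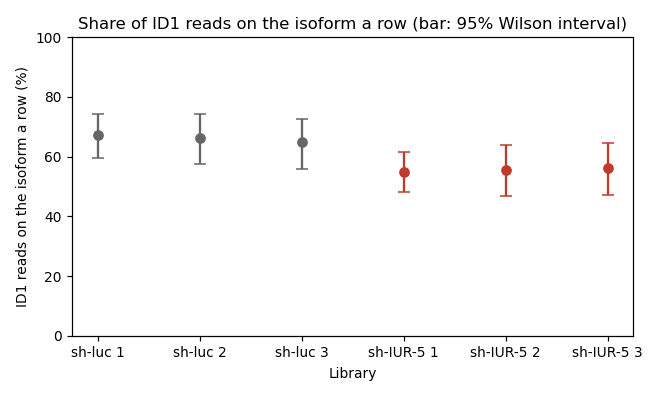
Share of ID1 reads placed on the isoform a row, in percent (vertical axis), in each of the 6 libraries, with its 95% Wilson interval (grey sh-luc, red sh-IUR-5). The sh-luc libraries lie between 64.8% and 67.3% and the sh-IUR-5 libraries between 54.9% and 56.2%, with intervals that overlap between groups.

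SMADs bind DNA, so the members' promoters were searched for 2 motifs known from BMP target genes, the palindrome GTCTAGAC and the GC-rich GGCGCC, each of which reads the same on both strands and which do not overlap in sequence. The windows ran from 250 bases before to 50 bases after each RefSeq start (GRCh38.p14), with 17 windows for the 10 members. GTCTAGAC was in 1 member window, that of SMAD6, and in 0.202% of all 35116 windows. GGCGCC was in 7 windows of 5 members (BMPR2, SMAD1, SMAD2, SMAD4 and SMAD5) and in 19.2% of all windows. A match describes letters in a window, not binding. The SMAD6 sequence up to the start site (chr15:66702184-66702235, plus strand) is shown because it holds the palindrome, in capitals, in a gene with no detected difference.
SMAD6 promoter: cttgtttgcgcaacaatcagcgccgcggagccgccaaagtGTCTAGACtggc

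The other genes of the pathway were read from a list of 61, of which 34 were tested. In the edgeR fit 13 of them rose and 2 fell, or 44.1% called, beside 47.8% of all tested genes (24.8% higher and 22.9% lower). The median log2 fold change of the 34 was 0.26, beside 0.013 over all tested genes. With the GC and length trends removed 9 rose and 2 fell, or 32.4% called beside 35.6% of all genes, and the median was 0.084. Of the 15 ligands 5 were tested and none passed without that removal, whereas with it 1 passed as higher and 1 as lower. BMP4, BMP6 and INHBB had no read in any library. At an unadjusted p and without that removal, 17 of the 34 were under 0.05, beside 54.6% of all tested genes.

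Among the other receptors 3 of 7 tested rose, where 24.8% of all tested genes rose. TGFBR3, the betaglycan co-receptor that presents TGF-beta and binds BMPs, had the largest difference, from 2.17, 1.67 and 1.54 RPKM in sh-luc to 4.31, 3.35 and 4.26 in sh-IUR-5, a log2 fold change of 1.14 (SE 0.16, adjusted p = 0.0001433, edgeR). The type I receptors TGFBR1 (0.71, SE 0.17) and BMPR1A (0.63, SE 0.17) rose as well, and both were lost after removal of the GC and length trends (0.37 and 0.29). TGFBR2, the type II receptor for TGF-beta, and ACVRL1 had no read in any library.

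Inhibitors and factors of SMAD turnover held 8 risen genes among 14 tested, and none fell, where 24.8% of all tested genes rose and 22.9% fell. With the GC and length trends removed 4 of the 14 rose, where 1723 of all 10274 genes in that fit rose. The genes named next had the largest changes among the 8 risen without that removal. They do not show how the rest act on SMAD signals, and the 8 are not all inhibitors. LEMD3, an inner nuclear membrane protein that binds SMADs and dampens their signal, went from 4.23, 4.24 and 4.29 RPKM to 8.59, 7.91 and 7.96, with groups far apart and a log2 fold change of 0.94 (SE 0.09, adjusted p = 1.882e-05, edgeR). SKI, a SMAD corepressor, rose by 0.61 (SE 0.18), a call lost without sh-luc replicate 2 (0.48, adjusted p = 0.0566, edgeR). SMURF2, a ubiquitin ligase for SMADs and receptors, rose by 0.56 (SE 0.10), and was at 0.25 after removal of the GC and length trends (adjusted p = 0.0522, edgeR).

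The E proteins and their haematopoietic partners, whose DNA binding the ID proteins oppose, moved both ways. TCF12, also called HEB, rose by 0.80 (SE 0.10, adjusted p = 8.729e-05, edgeR) and TAL1, the erythroid partner of E proteins, by 0.71 (SE 0.10, adjusted p = 0.0001844). TCF4, also called E2-2, fell by 0.67 (SE 0.09, adjusted p = 0.0001061, edgeR), from 19.5, 17.0 and 16.7 RPKM to 11.3, 11.3 and 11.9. LYL1, a relative of TAL1, fell by 0.47 (SE 0.10, adjusted p = 0.002666), a call that was lost with total reads alone (-0.26, adjusted p = 0.0754, edgeR) and with the GC and length trends removed (-0.096, adjusted p = 0.324, edgeR). Of the 6 other target genes 2 were tested and neither passed, where 47.8% of all tested genes passed. With the GC and length trends removed 1 of them passed as higher, as did 1723 of all 10274 genes in that fit.

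**Figure D4:**
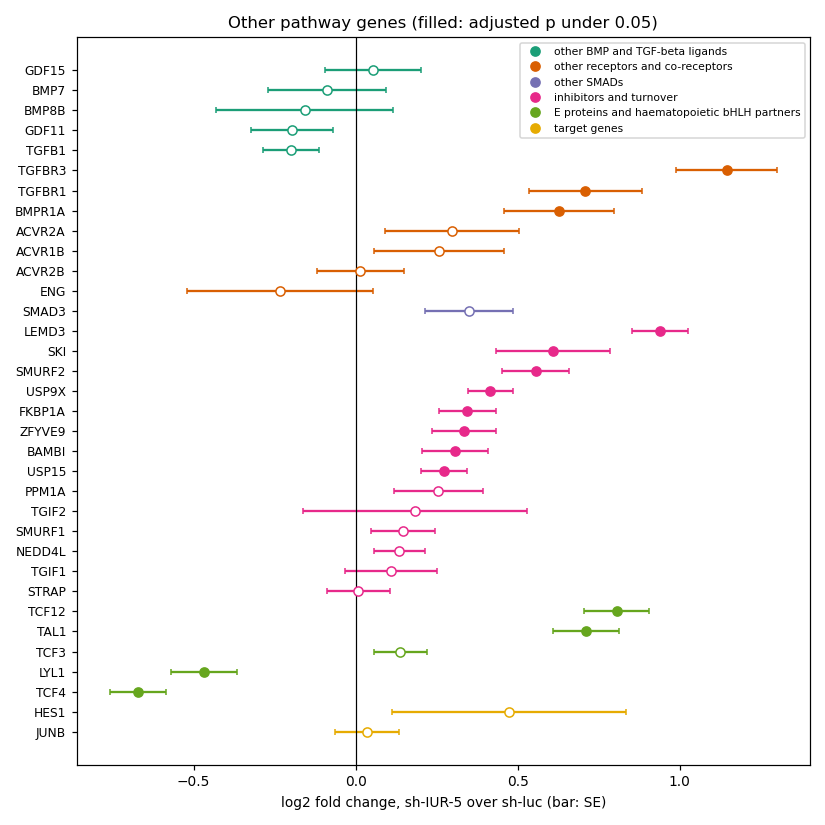
Log2 fold change, sh-IUR-5 over sh-luc, with its SE (horizontal axis) for the 34 tested genes of the wider pathway list, coloured by role and filled where the adjusted p was under 0.05. The 13 filled points to the right of 0 are receptors, genes listed as inhibitors or turnover factors, TCF12 and TAL1. The 2 to the left are TCF4 and LYL1.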

How the data were processed

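RNA-seq of 3 sh-IUR-5 and 3 sh-luc K562 libraries was used, grouped by sample title. Per the labels, CASAVA 1.8, Trimmomatic 0.32, Bowtie2 2.1.0 and SAMtools 0.1.19 were used with hg38, their roles not given. The authors trimmed, masked and mapped the reads and deposited raw read counts per RefSeq protein accession. The authors also deposited RPKM, which equalled reads over row length and library sum within 5.1e-11. A deposited table of the authors' own comparison (pooled values, fold changes, p-values) was not used.

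Accessions were joined to symbols through the RefSeq gene table (64.7% of rows, 83.9% to 84.8% of reads), and reads and RPKM were summed per gene. Genes with a mean RPKM of at least 1 were tested with edgeR 4.0.16 in R 4.3.3 (TMM, quasi-likelihood, two-sided, Benjamini-Hochberg over all 10392 genes, or over all 38204 rows, threshold 0.05), after tests on simulated data. The study's methods speak of independent groups of cells without naming separate infections, so p-values measure the spread between these libraries, which may be technical. Replicates differed by more than sampling noise (chi-square per gene 3.32 to 19.2). The value between replicates 2 and 3 was 4.91 in sh-luc and 3.32 in sh-IUR-5, and pairs with replicate 1 had 9.51 to 19.2. Replicates 2 and 3 were thus closer to each other, and whether they are fully independent repeats was not tested. Alternatives used DESeq2 1.42.0, limma 3.58.1 on log2(RPKM + 0.1) or log2(RPKM + 1), other filters, and trends fitted with mgcv 1.9.3.

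Members, gene lists and tests were chosen with earlier results of these data known. All 10 members were named, as sums and at the row with the most reads, with up to 8 listed pathway genes per direction by size of change, and TFRC, GAPDH and ACTB. Protein sequences were not used here. Gene coordinates are from the RefSeq gene table. The ID1 coding ends and the exon hit by the hairpin are from GENCODE v44.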

Additional observations from a re-analysis of the deposited data

How the results depend on the processing

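SMAD5 passed the threshold under 20 of 20 alternatives (log2 fold change 0.66 to 1.22), SMAD4 under 19 of 20 (0.29 to 0.80), SMAD2 under 17 of 20 (0.21 to 0.58) and BMPR2 under 15 of 19 (0.22 to 0.73). Leaving out each library left 4 to 5 members, 13 to 15 pathway genes, 4058 to 4926 genes, 6 to 8 member rows and 11210 to 13580 rows called. The shares called were 39% to 47.4% of all tested genes and 29.3% to 35.6% of all tested rows. With GC and length trends removed 1 member was called (6957 rows), and 2 with a replicate block added (9184 rows). Both put ID1 at 0.11, and the cause was not tested. A minimum of 5 RPKM left 3 members of 4 tested, and 2 member rows of 7357 called. The row with the most reads gave 3 members, with ID1 lower (-0.52, adjusted p = 0.0144, edgeR) and BMPR2 (0.35) and SMAD2 (0.34) lost. For SMAD2 that rests on which of 2 rows tied at 485 reads was taken, since the other passed in the fit of rows (0.46, adjusted p = 0.0258, edgeR).

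SMAD6, ID2 and the ID1 isoform b row did not pass in any setting that changed their sign. SMAD6 was at 0.20 with total reads alone, 0.17 and 0.14 with limma, 0.04426 at its main row and -0.12 to 0.099 without single libraries. Its main row was at -0.031 without a minimum, -0.034 without the length trend, -0.044 without GC and length trends, -0.041 with a block as well and -0.12 to 0.16 without single libraries. ID2 was at 0.041 with total reads, 0.023 and 0.018 with limma, 0.049 without the length trend, 0.022 without GC and length trends, 0.0040 with a block as well and -0.36 to 0.088 without single libraries, and the ID1 isoform b row at -0.015 to 0.19. GAPDH was at 0.014 with total reads and with limma and at 0.12 without GC and length trends, with or without a block, where it passed as higher with the block (adjusted p = 0.0334, edgeR). ACTB was at -0.0053 with DESeq2 or its size factors, -0.0056 without the length trend and -0.021 to 0.055 without single libraries, and passed as higher at 0.22 with total reads (adjusted p = 0.00878, edgeR) and with limma and at 0.18 without GC and length trends, with or without a block.

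Without single libraries the log2 ratio differences were -0.30 to -0.018 for ID1 to ID2, -0.56 to 0.54 for SMAD7 to SMAD6, 0.60 to 0.73 for SMAD5 to SMAD2 and 0.91 to 1.16 for SMAD5 to SMAD6, and the ID1 isoform a share fell by 10.01 to 11.3 percentage points. The deviations of same-numbered libraries correlated at 0.45, 0.16 and 0.0052, and those of replicates 2 and 3 across groups at 0.35 and 0.19. All pairs from different series in the library names were negative (-0.38 to -0.14). Deviations were taken from the mean of each group, so positive pairs require negative ones and these signs were partly fixed in advance. Replicate 1 was also the deepest library of its group, so series and depth cannot be told apart. The replicate numbers are not shown to pair the libraries. A term for that series called 6276 genes, 5 members and 17 pathway genes. A replicate block called 5954 genes, 4 members, 17 pathway genes, 16837 rows and 8 member rows. With the block, unequal change of the ID1 rows had an adjusted p of 0.826 (edgeR). Depth limits SMAD1, SMAD7, ID3 and ID2.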
